A study of Mus musculus with 63 samples.

Results

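The comparison described here sets the dentate gyrus (DG) against the CA3 area in non-lesioned, synaptopodin-deficient (Synpo-/-) tissue cultures. Its members are the 13 libraries whose titles give synaptopodin deficiency, control treatment and the tissue, 7 from DG and 6 from CA3, of 63 libraries in the series. Cultures of entorhinal cortex and hippocampus were made from mice of the strain B6.129-Synpotm1Mndl/Dllr, of either sex, at postnatal day 3 to 5, and were kept for at least 18 days in vitro before the DG or the CA3 area of an individual culture was cut out with a scalpel. RNA of 1 such piece was turned into cDNA with 12 cycles of amplification and sequenced, so a library holds all cell types of the piece, and fewer cells of a type cannot be told apart from less RNA per cell. All 13 libraries carry the Synpo-/- genotype and none was lesioned. For comparison, the wildtype control cultures (C57BL/6J, Synpo+/+; 4 DG and 2 CA3 libraries) and the Synpo-/- cultures with entorhinal cortex lesion (ECL, a cut of the perforant path, taken 3 days later; 4 DG and 6 CA3 libraries) were used. The labels do not say which DG and CA3 pieces came from the same culture.

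Granule cells fill the DG and send their axons, the mossy fibres, to the pyramidal cells of CA3. Prox1 is a transcription factor that sets and keeps granule cell identity, and Dsp (desmoplakin), a desmosomal protein, is used as a granule cell marker. Iyd (iodotyrosine deiodinase) is used as a marker of CA3 pyramidal cells. Mossy fibre boutons are large and filled with zinc and peptides, and they contact thorny excrescences of CA3 dendrites that often hold a spine apparatus, the organelle that is missing without synaptopodin.

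Total counts ranged from 15485910 to 27138441 in the CA3 libraries and from 15967190 to 26931489 in the DG libraries. The targeted gene, Synpo (ENSMUSG00000043079.17, chromosome 18, 60593973 to 60660142, minus strand, GRCm38), was read in all 13 libraries. It had 661 to 975 normalized counts in CA3 (median 819) and 942 to 1453 in DG (median 1109). Normalized counts are counts divided by the relative effective size of the library. As CPM, the counts scaled to a common library total, Synpo stood at 37.55 ± 3.53 CPM in Synpo-/- CA3 and 54.8 ± 9.04 in Synpo-/- DG (SD, n = 6 and 7), against 26.6 ± 1.37 and 25.6 ± 2.99 in Synpo+/+ CA3 and DG (n = 2 and 4). A count over the whole gene does not show which exons were read, so the genotype rests on the labels. Xist exceeded the genes of the Y chromosome in 4 of 6 CA3 and in 4 of 7 DG libraries and lay below them in the others, so both sexes were present in each region.

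The 2 DG markers separated the regions and the CA3 marker did so in part. Prox1 (ENSMUSG00000010175.13, chromosome 1, 190118035 to 190170714, minus strand) had 316, 367 and 886 normalized counts as the lowest, median and highest CA3 value, and 2520, 3454 and 4072 in DG. All DG libraries lay above all CA3 libraries, and the highest CA3 value was that of CA3 replicate 1. Prox1 overlaps the antisense gene Prox1os, whose reads cannot be told apart without strand. The log2 fold change of DG over CA3 was 2.95 (SE 0.209, adjusted p 5.8e-09, quasi-likelihood test of edgeR, adjusted by Benjamini-Hochberg, as for all adjusted p-values given). Dsp (ENSMUSG00000054889.10, chromosome 13, 38151294 to 38198577, plus strand) had 16.7, 33.2 and 195 normalized counts in CA3 and 308, 424 and 782 in DG (log2 fold change 2.93, SE 0.414, adjusted p 2.78e-05). Without CA3 replicate 1, which again held the highest CA3 value, the log2 fold change of Dsp was 3.84. Iyd (ENSMUSG00000019762.4, chromosome 10, 3540240 to 3554877, plus strand) had 144, 224 and 382 normalized counts in CA3 and 80.3, 114 and 151 in DG, so the highest DG library passed the lowest CA3 library. Its log2 fold change was -1.10 (SE 0.195, adjusted p 0.000317). CA3 replicate 1 held the 382 (others 144 to 300), and without it the log2 fold change of Iyd was -0.93.

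CA3 replicate 1 stood apart from the other CA3 libraries in some granule cell genes, as was known when the libraries were chosen. Its Prox1 count of 886 compares with 316 to 379 in the other 5 CA3 libraries, its Dsp count of 195 with 16.7 to 49.6, and its C1ql2 count of 126 with 11.6 to 30.2. The summed level of the 22 granule cell markers was 412 CPM in this library, with a median of 256 CPM over the 6 CA3 libraries and a range of 999 to 1490 CPM in DG. The summed level of the CA3 markers in the same library, 1240 CPM, was the lowest of the CA3 group and above the 485 to 785 CPM of DG. Some other genes with large differences were raised in CA3 replicate 1 as well, such as Pter (918 normalized counts, others 220 to 252). Ipcef1 was raised too (99.7, others 23.1 to 48.2). Tshz2 (129, others 87.8 to 133) and Dsc3 (23.9, the lowest CA3 value) were not. Over 187 genes at least 4-fold higher in DG, libraries were placed on the way from the mean of other CA3 libraries to that of DG. The median position of CA3 replicate 1 was 3%, and that of CA3 replicate 4 was 2.84%. The 187 genes were called with CA3 replicate 1 in the fit, so genes raised in it are less likely to be among them. The position therefore cannot show how far granule cell genes are raised in replicate 1. Results that replicate 1 moves by more than 1.5-fold are given with and without it.

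**Figure D1:**
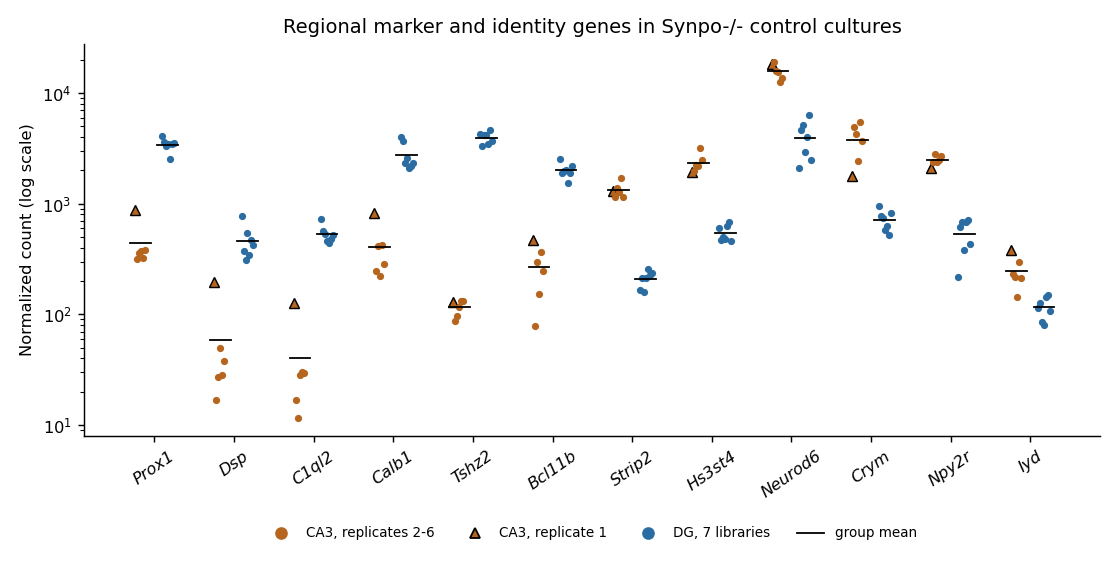
Normalized counts (log axis) of 12 genes in each of the 6 CA3 and 7 DG libraries of Synpo-/- control cultures, with the mean of each group as a line and CA3 replicate 1 as a triangle. CA3 replicate 1 is the highest CA3 library for Prox1 (886), Dsp (195), C1ql2 (126), Calb1 (833), Bcl11b (475) and Iyd (382). The groups overlap in Iyd.

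Across the transcriptome, 5467 of 21408 genes tested (25.5%) differed between DG and CA3 at an adjusted p under 0.05. Of these, 2797 (13.1%) were higher and 2670 (12.5%) lower in DG. Over all genes tested, the median difference was 0.05 on the log2 scale. With all 39 regional libraries in 1 fit, which scales them together, 1896 genes (35.2% of the calls) were higher and 3488 (64.8%) lower, against 51.2% and 48.8% with the 13 libraries alone. Without adjustment, p was under 0.05 in 7743 genes, against 1070 by chance. Differences of at least 2-fold were more frequent among the genes higher in DG, with 795 (3.71%) higher and 344 (1.61%) lower. Of these, 476 and 253 were protein coding and 262 and 75 were noncoding or unproven (TEC) genes. DG replicates 1, 4 and 7 had the most genes with counts in their group (39802 to 41843, the other DG libraries 35037 to 36836). They also lay farthest from CA3 on the first principal component. The regions overlapped on this component, with CA3 replicate 4 at 3.234 and DG replicate 2 at -6.005. CA3 replicate 4 had 41531 genes with counts. The part of these libraries in the difference between the directions was not tested. In 2431 genes (11.4%) the normalized counts of the regions did not overlap.

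**Figure D2:**
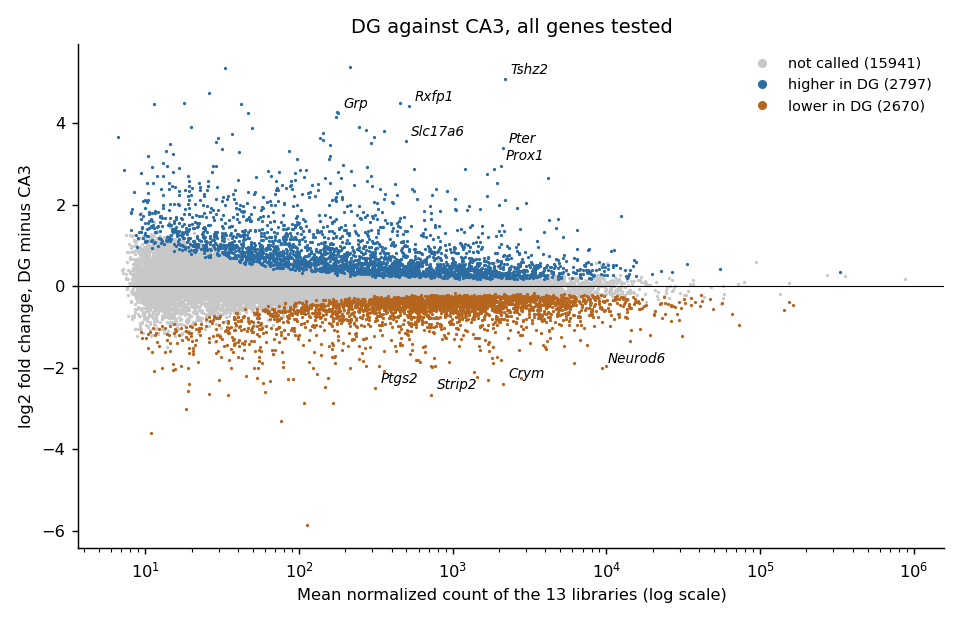
Log2 fold change of DG over CA3 against the mean normalized count of the 13 libraries (log axis), 1 point per gene tested. The 2797 genes higher in DG are blue, the 2670 lower in DG brown and the others grey. Tshz2 has the largest difference among genes with mean counts over 300.

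The largest differences towards DG, among called genes with a mean normalized count over 300 and no overlap, were in Tshz2, Dsc3, Rxfp1, Ipcef1, C1ql2, Slc17a6, Pter, Prox1, Cntn4 and Bcl11b. Tshz2 (ENSMUSG00000047907.11, chromosome 2, 169633013 to 170071816, plus strand), a zinc finger transcription factor, had 87.8, 123 and 133 normalized counts in CA3 as lowest, median and highest value, and 3310, 4150 and 4624 in DG. The regions were far apart in every library, with a log2 fold change of 5.08 (SE 0.123, adjusted p 1.27e-15), a fold of 33.9. Dsc3 (desmocollin 3, like Dsp a desmosomal protein) had 23.9, 29.6 and 70.8 in CA3 and 611, 796 and 1017 in DG (log2 fold change 4.49, SE 0.214, adjusted p 4.68e-11). Rxfp1, a receptor for relaxin, reached 80.3 normalized counts at most in CA3 and at least 732 in DG (log2 fold change 4.42, SE 0.202, adjusted p 2.99e-11). C1ql2, a secreted protein of the C1q family that mossy fibres release, had 11.6, 29.1 and 126 in CA3 and 446, 524 and 722 in DG, with CA3 replicate 1 again on top of its group. Its log2 fold change was 3.67 (SE 0.36, adjusted p 3.21e-07), and 4.48 without CA3 replicate 1. Slc17a6 encodes the vesicular glutamate transporter VGLUT2, and it had 56 to 88.6 normalized counts in CA3 and 708 to 1111 in DG (log2 fold change 3.55, SE 0.139, adjusted p 4.09e-12).

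The remaining genes of this group were Ipcef1 (log2 fold change 3.80), Pter (3.38), Cntn4 (2.89) and Bcl11b (2.88). Ipcef1, a partner of cytohesins, overlaps Oprm1 on the other strand, and reads of the pair cannot be told apart without strand. Pter had 238 as median in CA3 and 3822 in DG. CA3 replicate 1 held 918, and without it the log2 fold change was 3.96. Cntn4 (contactin 4), an axonal adhesion molecule, had medians of 116 and 905. Bcl11b, the transcription factor also called Ctip2, had 78.1, 273 and 475 normalized counts in CA3 and 1541, 1957 and 2516 in DG (SE 0.266, adjusted p 1.71e-07).

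The largest differences towards CA3 by the same rule were in Strip2, Ptgs2, Crym, Car4, Sv2b, Npy2r, Hs3st4, Neurod6, Matn2 and Nrip3. None reached the size of the largest differences towards DG. Strip2 (ENSMUSG00000039629.14, chromosome 6, 29917012 to 29959681, plus strand), a subunit of phosphatase complexes, had 1142, 1281 and 1721 normalized counts in CA3 and 161, 213 and 259 in DG. Its log2 fold change was -2.66 (SE 0.121, adjusted p 2.99e-11), a fold of 6.3. Ptgs2 (cyclooxygenase 2, a neuronal activity gene) had 475 to 708 in CA3 and 44 to 160 in DG (log2 fold change -2.51, SE 0.229, adjusted p 1.5e-07). Crym, a thyroid hormone binding protein, ranged widely within CA3, from 1766 to 5457 normalized counts, and from 527 to 952 in DG (-2.39, SE 0.213). Car4, an extracellular carbonic anhydrase, had medians of 2822 in CA3 and 557 in DG (-2.29, SE 0.219). Sv2b, a synaptic vesicle glycoprotein, had 3600, 4720 and 6889 in CA3 and 747, 878 and 1381 in DG (-2.25, SE 0.167, adjusted p 1.21e-08).

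Npy2r, the presynaptic receptor for neuropeptide Y on CA3 pyramidal cells, had 2103, 2439 and 2835 normalized counts in CA3 and 218, 611 and 719 in DG. The log2 fold change was -2.22 (SE 0.198, adjusted p 1.09e-07). Hs3st4, a heparan sulfate sulfotransferase, had medians of 2212 and 498 (-2.09, SE 0.125, adjusted p 6.35e-10). Neurod6, a transcription factor of pyramidal neurons, had 12647, 15665 and 19152 in CA3 and 2091, 3992 and 6337 in DG (-2.01, SE 0.204, adjusted p 5.07e-07). Matn2 (matrilin 2) and Nrip3 had log2 fold changes of -1.97 and -1.96. In each of the 10 genes all CA3 libraries lay above all DG libraries, which the rule required.

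Since these genes were separated between the regions, the sequence before the start of a gene from each side is shown, Prox1 for DG and Neurod6 for CA3. The windows are the 250 bases before the RefSeq start nearest to the annotated gene start, GRCm38.p6, chr1:190170828-190171077 and chr6:55681264-55681513, both on the minus strand and written 5′ to 3′ in the direction of the gene. Capitals mark matches, on either strand, to 4 motifs that were searched. They were the E-box read by NeuroD proteins, whose letters are CAGATG. The GC box was searched as GGGCGG. The TATA box was searched as TATAAA. The cAMP response element was searched as TGACGTCA.
Prox1: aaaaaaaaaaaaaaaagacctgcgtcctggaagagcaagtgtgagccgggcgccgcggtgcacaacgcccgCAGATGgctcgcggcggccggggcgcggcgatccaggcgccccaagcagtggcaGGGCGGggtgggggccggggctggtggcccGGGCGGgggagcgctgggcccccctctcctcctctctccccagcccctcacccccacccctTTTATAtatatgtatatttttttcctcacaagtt
Neurod6: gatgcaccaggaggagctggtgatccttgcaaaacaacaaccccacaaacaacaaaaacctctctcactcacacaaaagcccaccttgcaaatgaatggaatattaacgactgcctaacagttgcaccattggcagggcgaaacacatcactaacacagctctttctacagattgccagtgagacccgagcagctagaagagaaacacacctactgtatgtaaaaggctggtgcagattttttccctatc
The Prox1 window, whose end lies 113 bases before the annotated gene start, held 4 matches and that of Neurod6 none. Among 13972 windows of tested genes, CAGATG was in 11.2%, GGGCGG in 52.0%, TATAAA in 8.57% and TGACGTCA in 2.41%. A window was found for 15 of the 20 genes with the largest differences, 8 of DG and 7 of CA3, and GGGCGG was in 4 of each. CAGATG was in 1 of the 8 and in none of the 7.

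Gene lists of cell types and functions gave a broader view. Counts in each list can be set against all genes, of which 13.1% were higher, 12.5% lower and 11.4% without overlap. Together they held 598 genes, 589 of them tested, and 341 of these (57.9%) differed between DG and CA3, against 25.5% of all genes. The lists were chosen with earlier results of these data known, so the higher share is no evidence by itself. Among the 8227 genes with a mean normalized count over 300, 3254 were called, 1281 higher and 1973 lower in DG. These are larger shares than those of all genes, most of all for genes lower in DG. The shares of all genes set beside the lists are not matched for expression level. Of the 341, 303 were also called in each of the 13 fits that left out 1 library, and none of the 341 changed sign. All 22 dentate granule cell markers were higher in DG, with a median log2 fold change of 1.90, where 13.1% of all genes were called in that direction and the median of all genes was 0.05. In 18 of them the regions did not overlap, as in 1279 of all 2797 genes called higher. Trpc6, a receptor-operated cation channel, had medians of 155 normalized counts in CA3 and 891 in DG (log2 fold change 2.38, SE 0.126, adjusted p 1.89e-10). Dock10, an activator of small GTPases, had 618 and 2253 (1.88), and Rfx3, a transcription factor of ciliary genes, 1025 and 4133 (1.91). Plk5 was low, with 10.1 to 20.5 normalized counts in CA3 and 99.4 to 115 in DG (2.82, adjusted p 2.57e-09). Calb1 (calbindin), the calcium buffer of mature granule cells, had 221, 351 and 833 in CA3 and 2089, 2354 and 3965 in DG (2.76, SE 0.264, adjusted p 2.52e-07). C1ql3, a relative of C1ql2, had a log2 fold change of 3.51, and 4.47 without CA3 replicate 1.

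Of 19 CA3 pyramidal cell markers, 14 were lower in DG, none was higher and 5 did not pass the test, with a median log2 fold change of -1.06. After Hs3st4, the smallest adjusted p-values belonged to Socs2, Nectin3 and Spock1. Socs2, an inhibitor of cytokine signalling, had 1465, 1632 and 2056 normalized counts in CA3 and 466, 589 and 729 in DG (log2 fold change -1.46, SE 0.11, adjusted p 1.49e-08). Nectin3, an adhesion molecule on the CA3 side of mossy fibre contacts, had 2755 to 3747 in CA3 and 518 to 1183 in DG (-1.75). The proteoglycan gene Spock1 had 2206 to 3244 and 589 to 1292 (-1.58). In 12 of the 14 the regions did not overlap, the exceptions being Iyd and St18. Of all 2670 genes called lower, 1129 did not overlap. The 5 markers that did not pass were Col6a1 (0.40, adjusted p 0.07), Galnt3 (-0.21), Fmo1 (0.27), Coch (-0.20) and Cdh24 (0.02).

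Markers of other neurons of the slice were not spread evenly either. All 6 Cajal-Retzius cell markers were higher in DG without overlap (median log2 fold change 1.92). Reln (reelin), the secreted guidance protein of these cells, had 355, 449 and 857 normalized counts in CA3 and 1613, 1896 and 2129 in DG (1.88, SE 0.166, adjusted p 9.74e-08). The transcription factor genes Lhx1, Ebf3 and Lhx5 of these cells had log2 fold changes of 2.13, 1.83 and 2.02. Of 16 interneuron markers 10 were higher in DG and none lower (median 0.50). Gad1, a GABA-synthesizing enzyme, had 3796, 4180 and 4829 in CA3 and 5769, 6538 and 7638 in DG (0.62, SE 0.0821, adjusted p 1.21e-05), and Vip 582 to 770 and 1000 to 1524 (0.95). Npy (0.92) and Sst (0.49) were higher in DG with overlap. Pvalb, with 454 to 1289 in CA3 and 656 to 1765 in DG, did not pass (adjusted p 0.102).

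Of 9 mossy cell markers, 4 were higher in DG, where these hilar neurons lie. They were Sv2c (log2 fold change 1.97), Calb2 (2.87), Glra3 (1.57) and Csf2rb2 (0.74). The other 5 did not pass, with Vgll3 at 0.95, Drd2 at -0.19, Calcrl at -0.22, Nmb at -0.19 and Ajap1 at -0.05. The median of the list was 0.74, and -0.06 in Synpo+/+ controls. Calb2 (calretinin) varied most within DG, from 1286 to 5445 normalized counts, and CA3 replicate 1 held 1007 against 219 to 424 in the other CA3 libraries. Among 10 markers of CA1 and subiculum, 6 were higher in DG and 1 was lower, and the 6 included Nts, Mpped1 (1.55) and Ndst4 (2.45). Nts (neurotensin) had 0.84 to 18.5 in CA3 and 108 to 746 in DG (5.38, SE 0.45, adjusted p 4.8e-08). Of 10 CA2 markers 2 were higher and 3 lower in DG, among them Ntf3 (neurotrophin 3), which was higher in DG with a log2 fold change of 2.59, and Amigo2, an adhesion molecule of CA2, with -0.71. The part of CA1, subiculum or CA2 tissue in either piece was not tested. In the list of immature granule cell and progenitor genes, 6 of 15 were higher in DG, among them Sox11 (1.03) and Dcx (0.31), and Stmn2 was lower (-1.08).

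Among glial markers, those of oligodendrocytes had the highest share of calls. Of 14 oligodendrocyte markers 13 were lower in DG, Sox10 (-0.21) being the exception, with a median of -1.18, and their summed level was 1780 to 2820 CPM in CA3 and 625 to 1710 CPM in DG. Mbp (myelin basic protein) had 5006, 6056 and 7337 normalized counts in CA3 and 1989, 3133 and 4537 in DG (-1.02, SE 0.151, adjusted p 4.63e-05). Mag, a myelin adhesion protein, had 247 to 386 in CA3 and 72.4 to 164 in DG (-1.46). None of the 6 markers of oligodendrocyte precursors passed the test. Of 15 astrocyte markers 6 were lower in DG, with small differences, such as Gfap with -0.49 (29852 to 33291 in CA3, 19186 to 26353 in DG) and the glutamate transporter gene Slc1a2 with -0.32. Of 14 microglia markers 2, C1qa (-0.57) and C1qc (-0.63), were lower in DG, a share near the 12.5% of all genes.

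Vascular and surface cells gave mixed values. Of 11 endothelial and mural cell markers 1 was higher in DG, 4 were lower and 6 did not pass. Rgs5, used as a pericyte marker, was higher in DG (422 to 1124 normalized counts in CA3, 2445 to 4766 in DG, log2 fold change 2.10), whereas Abcc9 (-1.31), Kcnj8 (-1.96), Cldn5 (-1.22) and Pecam1 (-0.77) were lower, all with overlap. Kcnj8 and Pecam1 each did not pass in 3 of the 13 fits that left out 1 library. Of 8 fibroblast and meningeal markers tested, Dcn (1.40) and Ptgds (1.43) were higher in DG, with values of 2.01 for Dcn without CA3 replicate 3 and 0.58 for Ptgds without DG replicate 5. Among choroid plexus and ependymal genes, Ttr was higher in DG (3.83), with 5.04 to 92.9 normalized counts in CA3 and 21.6 to 1160 in DG. Without CA3 replicate 4 its log2 fold change was 4.44. Tmem212, with 2.56 to 906 in CA3 and 0 to 11.1 in DG, was lower in DG (-5.86, and -4.67 without CA3 replicate 3). Ccdc153, with 7.67 to 464 and 6.94 to 28.2, was lower as well (-3.31, and -2.49 without CA3 replicate 3). In both genes the regions overlapped, and CA3 replicate 1 held the lowest CA3 value. The other 3 genes of this list that were tested, Folr1 (-0.56), Clic6 (-0.77) and Kl (-0.01), did not pass. The part of these cell types in the other differences was not tested.

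**Figure D3:**
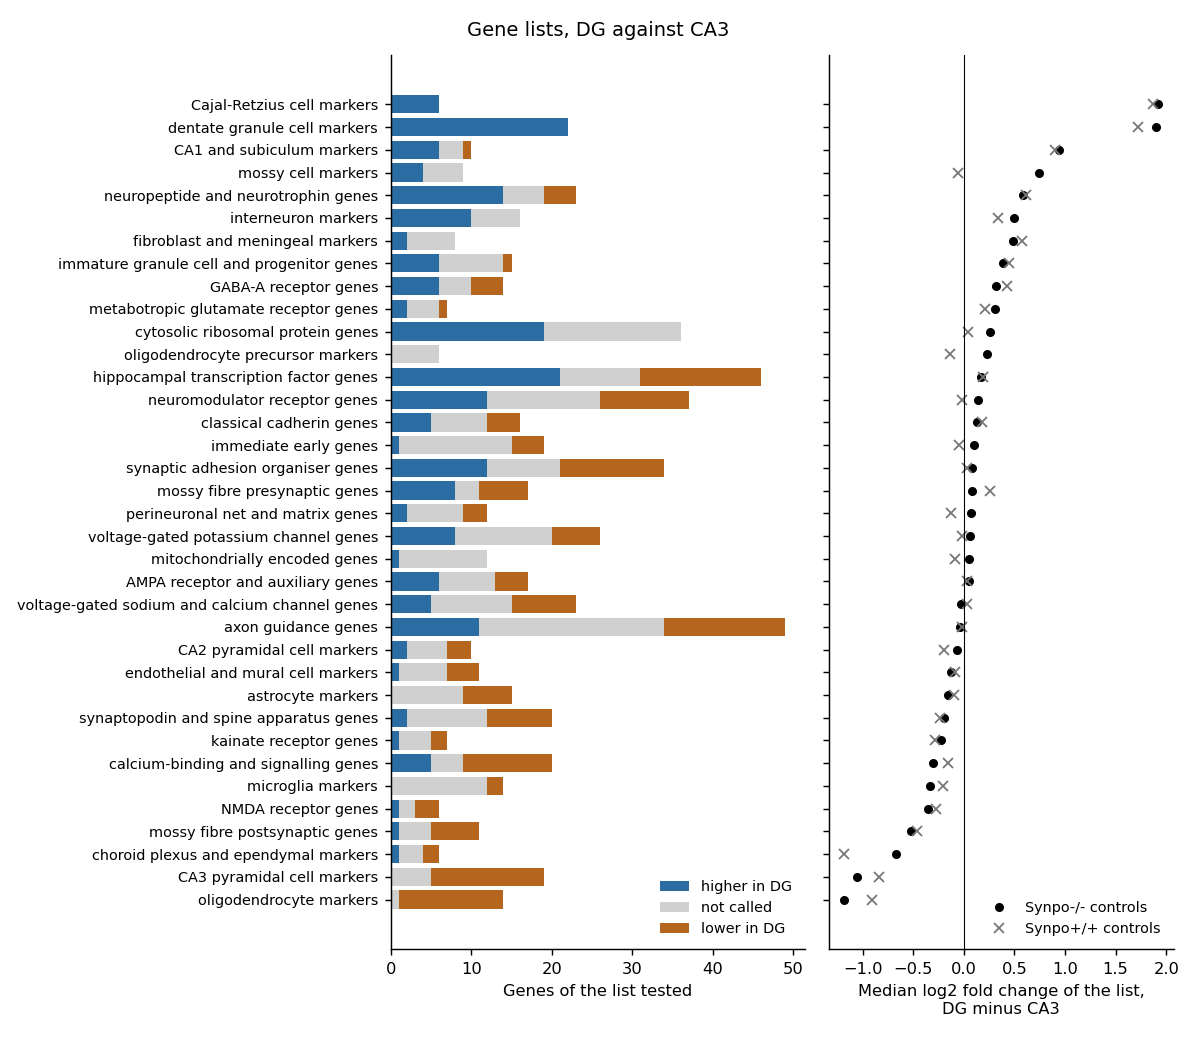
Left, number of genes tested in each of 36 lists, split into higher in DG, not called and lower in DG; right, median log2 fold change of each list in Synpo-/- controls (points) and Synpo+/+ controls (crosses). All 22 granule cell and all 6 Cajal-Retzius markers are higher in DG, and 13 of 14 oligodendrocyte and 14 of 19 CA3 markers are lower.

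At the mossy fibre synapse, genes of the presynaptic list went in both directions, with 8 of 17 higher and 6 lower in DG. Higher in DG, beside C1ql2 and C1ql3, were Adcy1 and Slc30a3. Adcy1, the calcium-stimulated adenylyl cyclase needed for mossy fibre potentiation, had 722, 990 and 1898 normalized counts in CA3 and 4006, 4625 and 5067 in DG (log2 fold change 2.04, SE 0.169, adjusted p 4.66e-08). Slc30a3, the zinc transporter ZnT3 that loads the vesicles of mossy fibres, had 66.5 to 108 in CA3 and 207 to 342 in DG (1.59, SE 0.147). The opioid peptide genes Pdyn (0.91) and Penk (0.58) were higher with overlap, and Penk did not pass in 8 of the 13 fits that left out 1 library. Lower in DG were Rims1 (-0.70) and Cplx2 (-0.54), which act in vesicle priming and release, Rab3a (-0.81), Nrxn3 (-0.47) and Bdnf (-0.64), which did not pass in 1 such fit.

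Of 11 genes of the postsynaptic side, 6 were lower in DG and 1, the targeted gene Synpo (0.46, adjusted p 0.00272), was higher. The Synpo count does not show which exons were read. The median log2 fold change was -0.53. Neto1, an auxiliary subunit of kainate receptors, had 7129, 7980 and 9471 normalized counts in CA3 and 2296, 3061 and 3529 in DG (-1.45, SE 0.102, adjusted p 4.79e-09). Gpr158 (-0.55) and Lrrtm1 (-0.53), organisers of mossy fibre and other excitatory synapses, were lower without overlap. Grik4, the kainate receptor subunit of high affinity, had 312 to 573 in CA3 and 152 to 262 in DG (-1.06, adjusted p 1.53e-05). Its partner Grik2 had 1770 to 2592 and 2006 to 2462 (0.10, adjusted p 0.396), and Grik5 -0.33 (adjusted p 0.11). Grik3 was the 1 kainate receptor gene higher in DG (0.66).

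Differences in the other glutamate receptors lay in subunits and auxiliary proteins of opposite direction. Of 17 AMPA receptor and auxiliary genes 6 were higher and 4 lower in DG. Among the pore-forming subunits, Gria1 was lower at -0.50 (10226 to 11871 normalized counts in CA3, 6505 to 8827 in DG) and Gria4 higher at 0.30, with Gria2 (-0.12, adjusted p 0.23) and Gria3 (0.05, adjusted p 0.661) not past the threshold. The auxiliary genes showed the larger values. Gsg1l, which slows recovery of AMPA receptors, had 16.9, 28.1 and 41.4 in CA3 and 190, 274 and 321 in DG (3.12, SE 0.181, adjusted p 4.68e-10). Shisa9 (CKAMP44) was higher in DG (1.26, adjusted p 4e-09), while its relative Shisa6 was lower, with 1993 to 2656 in CA3 and 606 to 941 in DG (-1.55, adjusted p 2.88e-09). The cornichon genes also split, Cnih3 being higher (0.62) and Cnih2 lower in DG (-1.04).

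Of 6 NMDA receptor genes tested, Grin2a (-0.53), Grin2b (-0.56) and Grin1 (-0.41, not past the threshold in 2 of the 13 fits) were lower in DG, and Grin3a, a subunit that lowers calcium entry, was higher (0.52). Among 7 metabotropic glutamate receptor genes tested, 2 were higher in DG, Grm2 and Grm8, and 1 was lower. Grm2, the presynaptic receptor of mossy fibres, had 10.9, 20.5 and 49.4 normalized counts in CA3 and 226, 265 and 319 in DG (3.46, SE 0.244, adjusted p 5.34e-09). Grm8 had 20.2 to 68.7 and 132 to 185 (2.26).

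The GABA-A receptor genes divided by subunit. Higher in DG were 6 of 14, and 4 were lower. Gabrd, the extrasynaptic delta subunit of granule cells, had 20.3 to 52.8 normalized counts in CA3 and 118 to 176 in DG (log2 fold change 2.21, SE 0.213, adjusted p 2.67e-07). Gabrb2 was higher as well (0.97). On the other side, Gabra5, the subunit of tonic inhibition in pyramidal cells, had 5157, 6173 and 7012 in CA3 and 1338, 2732 and 3220 in DG (-1.35, SE 0.16, adjusted p 3.34e-06). Gabra2 (-0.72) and Gabrb1 (-0.61) were also lower.

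**Figure D4:**
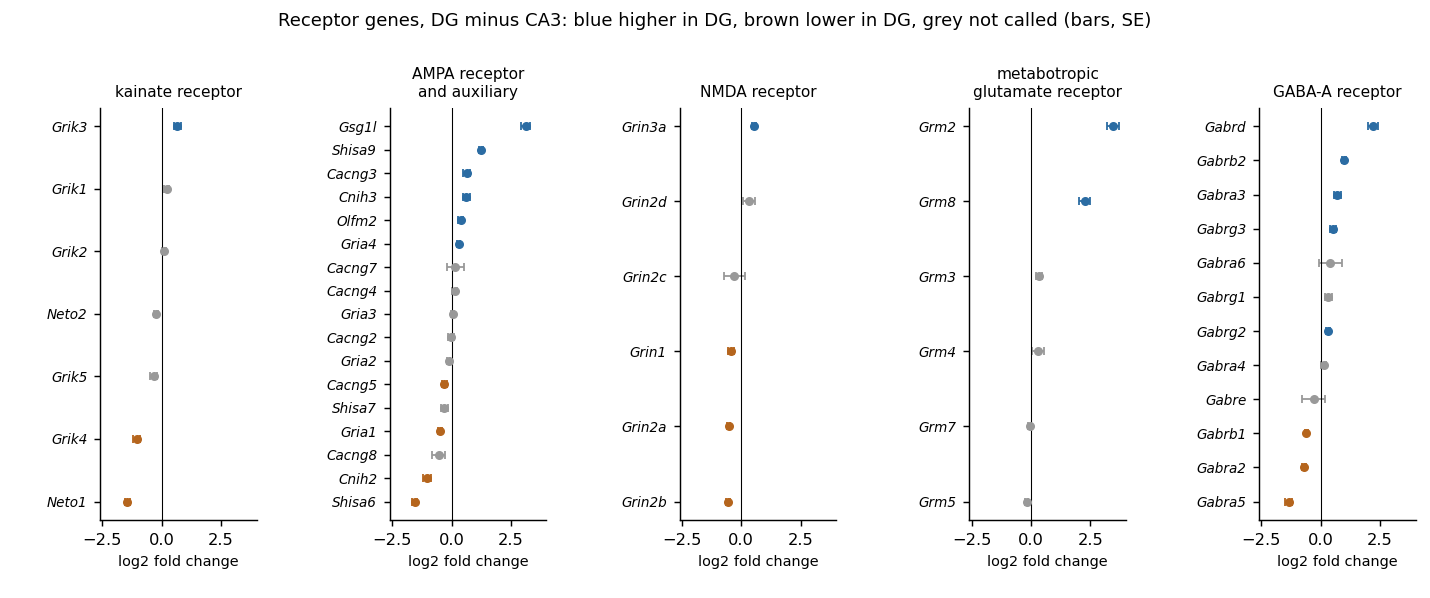
Log2 fold change of DG over CA3 with its SE for kainate, AMPA, NMDA, metabotropic glutamate and GABA-A receptor genes, with 3 of the genes tested left out. Grm2 (3.46), Gsg1l (3.12) and Grm8 (2.26) lead towards DG, and Neto1 (-1.45), Shisa6 (-1.55) and Gabra5 (-1.35) towards CA3.

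Of 37 neuromodulator receptor genes tested, 12 were higher and 11 lower in DG. The glucocorticoid receptor gene Nr3c1 was higher (1327 to 1584 normalized counts in CA3, 1814 to 2194 in DG, log2 fold change 0.47), and the mineralocorticoid receptor gene Nr3c2 lower (2214 to 2480 and 1022 to 1360, -0.94, adjusted p 4.32e-08). Sstr2 (1.48), Adra1a (1.24) and Glp1r (1.47) were higher in DG without overlap. After Npy2r, the cannabinoid receptor gene Cnr1 (-0.63) and the muscarinic receptor gene Chrm1 (-0.64) were among those lower. The dopamine receptor genes went apart, Drd1 with 2.27 and Drd5 with -1.85, and without CA3 replicate 5 the value of Drd1 was 2.93.

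Peptide and neurotrophin genes leaned towards DG, with 14 of 23 higher and 4 lower (median log2 fold change 0.58). Grp (gastrin-releasing peptide) had 9.76, 14 and 29.4 normalized counts in CA3 and 187, 328 and 399 in DG (4.25, SE 0.224, adjusted p 1.89e-10). Adcyap1, which encodes the peptide PACAP, had 8.36 to 43.5 and 199 to 454 (4.16, and 4.745 without CA3 replicate 1, which holds the 43.5), and Tac1, the precursor of substance P, 116 to 218 and 508 to 742 (2.03). Of the 4 that were lower in DG, Nptx1, a neuronal pentraxin that gathers AMPA receptors, had 4730 to 7197 in CA3 and 2441 to 3325 in DG (-1.11, adjusted p 4.35e-08). The granin gene Chgb was also lower (-0.75), with 9924 to 13146 in CA3 and 5778 to 8368 in DG.

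Of 46 transcription factor genes tested, 21 were higher and 15 lower in DG, against 13.1% and 12.5% of all genes. In 16 and 10 of them the libraries did not overlap, against 11.4% of all genes in either direction. Mef2c, a factor that restrains synapse number, had 1960, 2264 and 2560 normalized counts in CA3 and 6688, 6882 and 8187 in DG (log2 fold change 1.65, SE 0.0799, adjusted p 5.17e-11). Pou3f1 had 26.4 to 52 in CA3 and 189 to 256 in DG (2.52, adjusted p 8.53e-10). After Neurod6, Lmo1 (241 to 550 and 79.2 to 172, -1.79), Onecut2 (-0.82) and Klf7 (-0.57) had the smallest adjusted p-values of the genes lower in DG.

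Ion channel genes also went both ways. Of 26 voltage-gated potassium channel genes 8 (30.8%) were higher in DG and 6 (23.1%) lower, against 13.1% and 12.5% of all genes. Kcnh7, of the ERG family, had 365, 391 and 505 normalized counts in CA3 and 1344, 1636 and 1857 in DG (log2 fold change 1.89, SE 0.108, adjusted p 3.69e-10). Kcnc4 (1.81), Kcnh5 (1.68) and Kcnb2 (0.48) followed. Kcnq5, a channel of the M-current, had 2507, 3430 and 3851 in CA3 and 697, 1026 and 1162 in DG (-1.80, SE 0.123, adjusted p 4.1e-09), and Kcna1 (-0.92), Kcnc2 (-0.94) and Kcnv1 (-0.95) were lower by similar amounts. Of 23 sodium, calcium and HCN channel genes 5 (21.7%) were higher and 8 (34.8%) lower. Scn3a, a sodium channel of young neurons, was higher in DG (0.77, adjusted p 1.92e-07), and Scn8a (-0.63), Scn2b (-0.93) and Cacna2d3 (-0.70) were lower.

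Cell surface genes for wiring and adhesion contained members of either region. Of 16 classical cadherin genes tested, Cdh6 (log2 fold change 1.08), Cdh7 (1.30) and Cdh20 (1.16) were among 5 higher in DG, and Cdh11 (-0.79), Cdh10 (-0.64), Cdh12 (-0.49) and Cdh2 (-0.38) were lower. Cdh9, known for its role at mossy fibre synapses, had -0.04 and did not pass. Of 49 axon guidance genes 11 (22.4%) were higher and 15 (30.6%) lower. The ligand Sema5a had 400, 456 and 983 normalized counts in CA3 and 2659, 3117 and 3623 in DG (2.54, SE 0.176, adjusted p 4.3e-09), and Sema5b (1.27), Efnb2 (1.06) and the receptor Plxnd1 (1.21) were higher as well. Lower in DG were the ligands Sema3e (2006 to 2912 in CA3, 649 to 1108 in DG, -1.42) and Slit2 (-1.15) and the receptors Dcc (-1.08) and Nrp1 (-0.87).

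Of 34 synaptic adhesion organisers 12 were higher and 13 lower in DG. Lrrtm4, which binds heparan sulfate proteoglycans at granule cell synapses, had 335, 492 and 1047 normalized counts in CA3 and 1289, 2730 and 3685 in DG (2.21, SE 0.252, adjusted p 2.1e-06). Lrrtm3 was higher too (1.45), whereas Lrrtm1 (-0.53) and Lrrtm2 (-0.32) were lower. Ptprd (0.96), Tenm3 (0.91) and Adgrl2 (2.05) were higher in DG, and Nlgn1, neuroligin 1 of excitatory synapses, was lower, with 6978 to 8223 in CA3 and 3415 to 4557 in DG (-0.95, adjusted p 4.8e-08). The cerebellin genes split, Cbln2 (1.55) and Cbln1 (1.44) being higher and Cbln4 (-1.96) lower.

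Genes of the spine apparatus and of calcium stores were mostly at lower levels in DG where they differed. Of 20 tested, 8 were lower and 2, Itpr1 (0.50) and the targeted gene Synpo, were higher. Ryr3, a calcium release channel of the endoplasmic reticulum, had 1561, 1693 and 1984 normalized counts in CA3 and 638, 862 and 913 in DG (-1.09, SE 0.0898, adjusted p 4.27e-08). Stim2, the sensor that couples store content to calcium entry, had 2431 to 3051 in CA3 and 1024 to 1505 in DG (-1.12), and its channel partners Orai3 (-0.80) and Orai2 (-0.47) and the calcium pump Atp2a2 (-0.61) were lower. Actn2, a synaptopodin-binding actin crosslinker, had -0.89, and Synpo2 (0.16) did not pass.

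Of 20 calcium-binding and signalling genes 11 were lower and 5 higher in DG. The protein kinase C genes Prkca (-1.57) and Prkcb (-0.96) and the calcium sensor gene Hpca (9078 to 11381 normalized counts in CA3, 1914 to 3641 in DG, -1.89) were all lower without overlap. The 4 subunits of CaM kinase II split, Camk2a (18878 to 26104 and 6556 to 16427, -1.04) and Camk2b (-0.49) being lower and Camk2g (0.66) and Camk2d (0.63) higher.

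Of 19 immediate early genes 5 differed, a share near the 25.5% of all genes, Ptgs2, Homer1 (-0.28), Bdnf (-0.64) and Arc (-0.95) being lower and Btg2 (0.86) higher in DG. Arc did not pass in 9 of the 13 fits that left out 1 library. Fos had 393 to 733 normalized counts in CA3 and 564 to 778 in DG (0.28, adjusted p 0.128). Among 12 genes of the perineuronal net and matrix, the link protein genes went apart, Hapln1 being higher (1.05) and Hapln4 lower in DG (898 to 1177 in CA3, 170 to 403 in DG, -1.86, adjusted p 4.29e-08). Tnc (1.11) was higher and Bcan (-0.31) lower. Of 36 genes of cytosolic ribosomal proteins 19 were higher in DG and none lower, with a median log2 fold change of 0.26. Rps19 (0.65) and Rps27 (0.86) led by adjusted p. The median of this list was 0.04 in Synpo+/+ controls and 0.07 in Synpo-/- cultures after ECL. Ribosomal protein genes have many near-identical pseudogenes, so their counts are uncertain. Of 12 mitochondrially encoded genes tested 1 was higher in DG (8.33%), against 13.1% of all genes, and none was lower.

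The same regions were compared in Synpo+/+ control cultures, which share no library with the 13. Xist exceeded the genes of the Y chromosome in all 4 DG and 2 CA3 libraries of Synpo+/+ controls. The Synpo-/- controls held both sexes, and the part of sex in differences between the genotypes was not tested. With 4 DG and 2 CA3 libraries, 1382 of 25656 genes (5.39%) were called there. Of 790 genes that were higher in Synpo-/- DG by at least 2-fold and were tested in Synpo+/+, 753 (95.3%) had a positive log2 fold change in Synpo+/+ and 366 were called in that direction. Of 342 that were lower, 332 (97.1%) had a negative one and 198 were called. Over all 21260 genes tested in both genotypes, 73.1% had the same sign. Tshz2 had 5.03 in Synpo+/+ against 5.08, Prox1 3.32 against 2.95, Dsp 3.46 against 2.93, Strip2 -2.56 against -2.66 and Neurod6 -1.56 against -2.01. Iyd, with 0.37 in Synpo+/+ (adjusted p 0.607), did not separate the regions there.

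**Figure D5:**
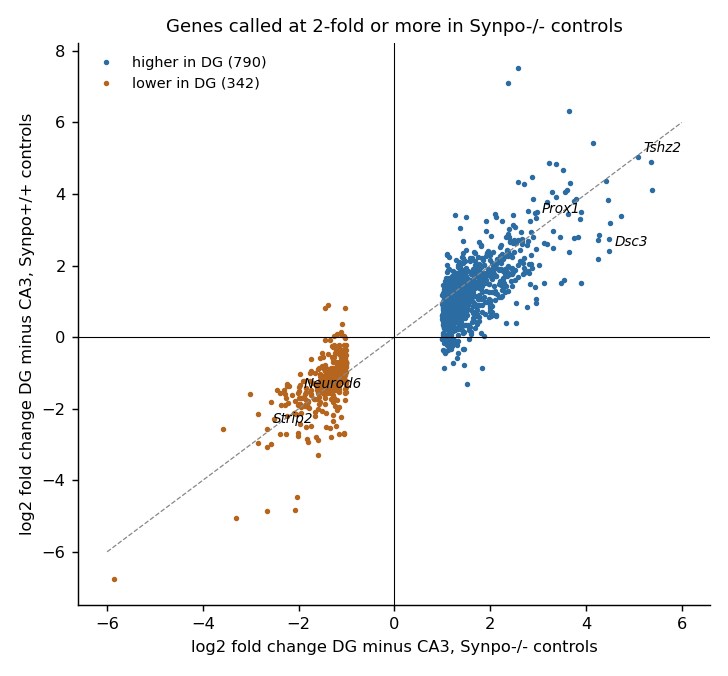
Log2 fold change of DG over CA3 in Synpo+/+ controls against that in Synpo-/- controls for the 790 genes higher (blue) and 342 genes lower (brown) in Synpo-/- DG by at least 2-fold, with the line of equality. Most points lie in the quadrants of equal sign, and Dsc3 lies below the line with 2.40 in Synpo+/+ and 4.49 in Synpo-/-.

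The difference between the genotypes was tested as an interaction of genotype and region. No gene of 28235 tested was called (0%) by edgeR, and none by DESeq2 or voom. By edgeR 1237 had an unadjusted p under 0.05, a smaller share than the 0.05 that chance gives. In simulated data of this design 163 of 200 genes with a 4-fold interaction were called. The changed genes had a mean count above a set minimum, and no other group differences were simulated. This share therefore does not describe genes with low counts or all 28235 genes tested. For Synpo the log2 fold change of DG over CA3 was 0.46 in Synpo-/- and -0.19 in Synpo+/+, and this difference did not pass. The test had 2 Synpo+/+ CA3 libraries, and smaller interactions were not simulated.

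After ECL, DG and CA3 of Synpo-/- cultures differed in 3098 of 22767 genes (13.6%), with 4 and 6 libraries. Prox1 (3.23), Strip2 (-2.65) and Hs3st4 (-2.10) had log2 fold changes near those of the controls (2.95, -2.66 and -2.09). The interaction of lesion and region called 284 of 25435 genes (1.12%), 61 with a larger and 223 with a smaller difference of DG over CA3 in controls than after ECL. DESeq2 called 680 and voom 439. Without the first ECL replicate of DG 131 genes were called, and without CA3 control replicate 3 179.

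Tshz2 was among the genes whose regional difference was larger in controls. It stood at 190.8 ± 23.1 CPM in control DG and 73.5 ± 20.3 CPM in DG after ECL (SD, n = 7 and 4), and at 5.29 ± 0.792 and 6.96 ± 3.70 CPM in CA3 (n = 6 each). The interaction was 1.80 on the log2 scale (SE 0.298, adjusted p 0.00285). Vegfa, an angiogenic growth factor, had 32.3 ± 4.21 CPM in control DG, 18.0 ± 1.21 CPM in DG after ECL, and 14.2 ± 2.21 and 16.6 ± 4.16 CPM in CA3 (1.10, SE 0.19, adjusted p 0.00401). The noncoding gene 9130024F11Rik, which overlaps a gene on the other strand, had 15.0 ± 4.62 CPM in control DG and 4.53 ± 0.581 CPM after ECL (2.13, adjusted p 0.00508). The counting did not use strand, so these reads cannot be assigned.

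Genes with the opposite interaction included Slc25a18 (a mitochondrial glutamate carrier of astrocytes), Aldh1l1 (an astrocyte enzyme) and Bcas1 (an oligodendrocyte lineage gene), with values of -1.24, -0.87 and -1.51. Slc25a18 overlaps Atp6v1e1 on the other strand. Aldh1l1 had 24.7 ± 1.33 CPM in control DG against 43.4 ± 7.00 CPM after ECL, and 24.4 ± 1.73 and 22.8 ± 1.64 CPM in CA3 (-0.87, SE 0.124, adjusted p 0.00118). In the controls it did not separate the regions (-0.06, adjusted p 0.611), whereas after ECL it was higher in DG than in CA3 (0.78, adjusted p 8.6e-05). Of 14 microglia markers 9 and of 15 astrocyte markers 6 had a called interaction, against 1.12% of all genes.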

How the data were processed

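Libraries of single DG or CA3 pieces were compared. Per the study's methods and the submitters' processing notes, cutadapt 3.5 trimmed the reads, STAR 2.7.8a aligned them to mm10 and featureCounts 2.0.1 counted them per gene without strand. The deposited values are the authors' raw counts for 55291 gene symbols, 107 of which stand for more than 1 gene. All count columns of the regional libraries were used (0 left out), and coIP libraries were not used here. Fits used edgeR 4.0.16 in R 4.3.3 with filterByExpr, TMM and the quasi-likelihood test over the 13 libraries, with Benjamini-Hochberg adjustment over all genes tested and a threshold of 0.05. Within groups, libraries correlated at 0.9668 to 0.9807 (CA3) and 0.9593 to 0.9813 (DG). Depth limits precision for low genes, and without molecular identifiers reads are not independent molecules. P-values measure the spread between these libraries. Named genes are Synpo, the 3 markers, the 10 largest differences per direction (mean normalized count over 300, no overlap), list members with the smallest adjusted p (up to 4 per direction) with their families, and up to 3 genes per direction of each interaction. Some list members were named for contrast after their values were seen. Members and the 37 lists were chosen with earlier results of these data known. DESeq2 1.42.0, limma 3.58.1 voom, RLE, no filter, a length correction, a replicate block and leaving out each library were alternatives. In simulated data 197 of 200 genes changed 4-fold were called in the main comparison (20817 genes). Changed genes had a mean count above a set minimum. Some genes are counted in their lists but not reported here.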

Additional observations from a re-analysis of the deposited data

Results flagged for a closer look

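In 7 of 56 groups of normalized counts of the named genes (6 CA3 or 7 DG libraries each), 1 library lay far from the others by Dixon's ratio, where chance gives about 1 in 20. The raised Prox1 of CA3 replicate 1 was known beforehand, and 5 of the 7 come from this library, so they are a description and not independent of each other. In CA3 replicate 1 these were Prox1 with 885.6 (next highest 379), Dsp with 195.2 (49.6), Ipcef1 with 99.73 (48.2), C1ql2 with 126.1 (30.2) and Pter with 918 (252). CA3 replicate 4 had 70.77 for Dsc3 (next highest 41.2). DG replicate 1 had 721.6 for C1ql2 (next highest 562.8).

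The interaction test of edgeR called 284 genes for lesion and region in Synpo-/- cultures. The 6 given here are the 3 with the smallest p in each direction, so the choice fixed that they pass. On the log2 scale the interaction, controls minus ECL, was 1.804 for Tshz2, 1.097 for Vegfa and 2.134 for 9130024F11Rik. It was -1.244 for Slc25a18, -0.8666 for Aldh1l1 and -1.514 for Bcas1. The adjusted p-values of the 6 genes were 0.00118 to 0.00508.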

How the results depend on the processing

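For Synpo, the 3 markers, the 20 genes with the largest differences and the interaction genes, all 586 recomputed values of DG over CA3 kept their direction and their side of the threshold. Of the 341 called list members, 38 did not pass in at least 1 fit that left out a library. DESeq2 gave no adjusted p for C1ql2 and Pter. The count of 5467 genes was 5936 with DESeq2, 5381 with RLE size factors, 4416 without a filter, 5781 with voom and 4506 to 5526 when 1 library was left out (higher in DG 2291 to 2766, lower 2203 to 3104). With a mean normalized count over 300 it was 3254 (1281 higher in DG), and with at least 2-fold 1139 (795 higher and 344 lower), since fewer genes can pass. RLE moved the median of all genes to 0.02 and the share higher in DG to 44.4%.

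The genotype interaction called 1 gene (Dsc3, adjusted p 0.0169) without a filter and otherwise none. The lesion interaction (284 genes) gave 680 with DESeq2, 439 with voom, 177 with a mean count over 300, and 131 to 401 when 1 library was left out, and the cause was not tested. In Synpo+/+ cultures after ECL, 492 genes differed between the regions, and 4746 without DG replicate 5, an alternative chosen after seeing the data.

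Pairing by replicate number was neither given by the labels nor shown by the data, and it is possible. Deviations of same-numbered DG and CA3 libraries correlated at -0.0148 to 0.54, with 3 of 6 pairs over 0.1, and 2 of the 6 CA3 libraries correlated best with their own number. In all 6 pairs both libraries were of the same sex by Xist and Y-linked genes. With a replicate block 6055 genes were called (6163 with the length trend removed), 0 for the genotype interaction and 201 for the lesion interaction (320 with the length trend removed). Without CA3 replicate 1 the median of the choroid plexus and ependymal markers was -0.91 and that of the potassium channels 0.12, and the medians of the sodium and calcium channel and guidance lists moved from -0.03 and -0.03 to 0.0037 and 0.0053.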
